A study of Trichoderma reesei with 11 samples.

Results

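A set of 56 gene IDs of the filamentous fungus Trichoderma reesei was higher in light than in darkness in a strain lacking the kinase gene TR_57513 and in its parent, and reached similar levels in light in both strains. The members were chosen by a rule on counts per gene ID divided by the library total and multiplied by 1000000 (CPM). The constant 0.5 was added to the mean CPM of each group. A member had at least 10 in light in both strains, a ratio of light over darkness of at least 2.5 in each strain, and a ratio of Δ57513 over parent in light between 0.667 and 1.5. The first and last 20 IDs of each of 7 lettered series of IDs were left out, which kept 10596 of 10879 IDs. The members are thus 56 of 10879 gene IDs. Because these values chose the members, the light ratios and the ratio of the strains in light are given as a description, with no test.

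RNA was sequenced from mycelium grown on cellulose as carbon source at 28 °C for 96 h. The Δ57513 strain is QM6a-delta-mus53-delta-57513 and the parent is QM6a-delta-mus53, so both lack mus53, a deletion used to favour targeted gene replacement. The groups were Δ57513 in constant light (n = 3), parent in constant light (n = 3), Δ57513 in constant darkness (n = 3) and parent in constant darkness (n = 2). Library totals were 8924252 to 10184280 counts for Δ57513 in light and 8020351 to 8770166 for the parent in light. In darkness they were 13790024 to 18278047 for Δ57513 and 15175573 to 16308391 for the parent. The alignment names in the labels put the light libraries and the dark libraries in separate number runs. An effect of light and one of the run therefore cannot be told apart, whereas strain comparisons lie within a run. The label mycelium could not be checked against marker genes, because the IDs carry no names.

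Fungi sense blue light mainly through a pair of white collar proteins, which act as photoreceptor and transcription factor and in Trichoderma are called BLR1 and BLR2. Genes they switch on in light typically include those for photolyase, which repairs ultraviolet damage to DNA, and for further light-sensing proteins such as ENV1. The HOG pathway is a cascade of 3 kinase tiers, named after the yeast response to high osmolarity, and the series title places TR_57513 in its upper tier, as a MAPKKK. In Trichoderma atroviride the MAP kinase at the end of this cascade, Tmk3, is known to take part in the response to light. The gene IDs are not paired with names here, and none of the 10879 matched the available gene table of 9116 genes. No member is therefore given a function, and no pathway list could be applied.

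In light the members spanned a wide range of levels. Their mean levels were 11.3 to 3093 CPM in Δ57513 (median 92.6) and 11.2 to 4516 CPM in the parent (median 91.5). In darkness the means were 0.782 to 384 CPM in Δ57513 (median 22.5) and 0.189 to 834 CPM in the parent (median 15.8). Averaged over both strains, 26 members exceeded 100 CPM in light and 8 stayed below 25 CPM. In darkness 14 members lay below 10 CPM in both strains and 6 lay above 100 CPM in both. Levels in CPM are not per length, so they rank members only roughly by transcript number. In mycelium as a whole, fewer cells with a transcript and less transcript per cell cannot be told apart.

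Together the members took a small share of each library, and that share separated light from darkness. It was 1.53%, 1.46% and 1.37% of counts in the Δ57513 libraries in light, and 1.75%, 1.55% and 1.45% in the parent libraries in light. In darkness it was 0.222%, 0.264% and 0.280% in Δ57513, and 0.263% and 0.331% in the parent. No light library overlapped the dark ones in this share, which the choice of members fixes in large part. The 4 most abundant members of each library held 46.1% to 60.4% of the members' counts in light and 41.8% to 55.6% in darkness.

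The light ratio had a median of 4.41 in Δ57513 (range 2.52 to 59.4) and 4.68 in the parent (range 2.54 to 397). Most members were moderate responders: the lower of the ratios of the strains was under 5 for 40 members, 5 to 10 for 13, and 10 or more for 3. The ratio was larger in Δ57513 for 23 members and larger in the parent for 33. The ratios of the strains lay within 1.5-fold of each other for 39 members and more than 2-fold apart for 4. All light libraries lay above all dark libraries for all 56 members in both strains. The same held for 27.2% of the 9040 gene IDs tested below in both strains, for 43.6% in Δ57513 and for 38.9% in the parent. Nothing is read from this difference, because the rule used the contrast. Scaling matters here, since the median log2 light ratio over all tested IDs was 0.19 in Δ57513 and 0.14 in the parent with library totals, but -0.0057 in Δ57513 and -0.0032 in the parent after scaling by the trimmed mean of M-values (TMM). The members' log2 ratios were at least 1.12 in Δ57513 and 1.19 in the parent under that scaling, and 37 of the 56 still met every limit of the rule.

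**Figure D1:**
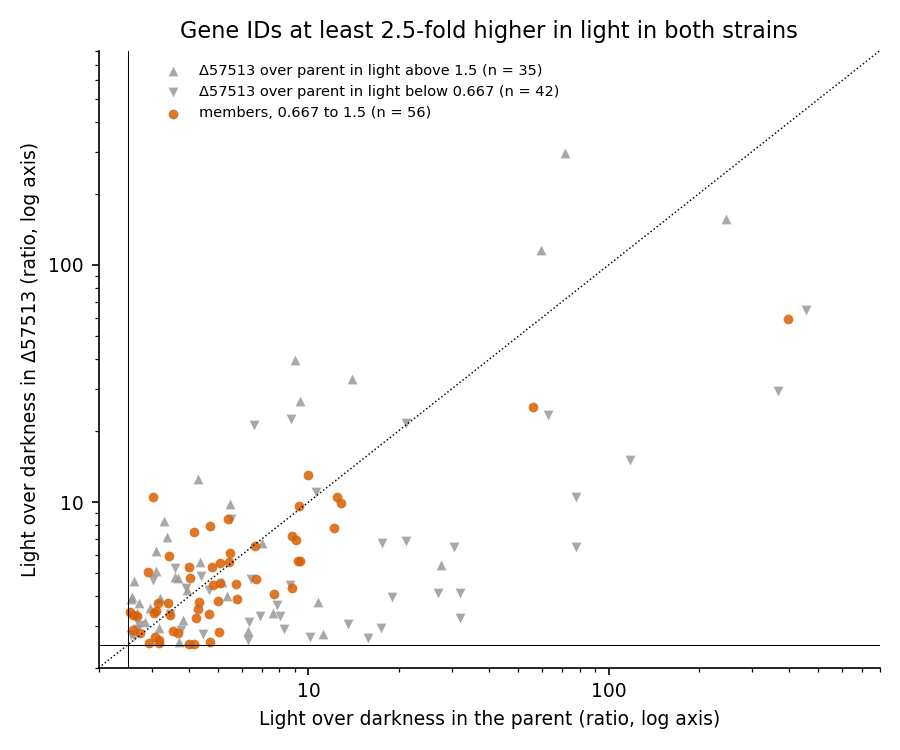
Ratio of light over darkness in Δ57513 (y axis) against that in the parent (x axis), both on log axes, for the 133 gene IDs that met the limits on level and light ratio in both strains. Orange points are the 56 members, grey triangles the 35 IDs above and the 42 IDs below the limits on the ratio of the strains in light; solid lines mark the limit of 2.5 and the dotted line equal ratios.

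The 133 gene IDs that met the level limit and both light ratios were split by the ratio of the strains in light. Members made up 42.1% of them, 35 IDs were higher in Δ57513 by more than 1.5-fold (up to 8.62-fold), and 42 were below a ratio of 0.667 (down to 0.0697). Among the members this ratio had a median of 1.02, with 32 higher in Δ57513 and 24 higher in the parent, and for 29 the lower of the means was at least 0.8 of the higher. The light libraries of the strains overlapped for 34 members. For 13 members all Δ57513 libraries in light lay above all parent libraries, and for 9 they lay below, against 31.4% and 19.1% of all tested IDs. The rule bounds this contrast, so the comparison with all IDs says nothing about the members.

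The limits lie within a continuous range of values. Just inside the light ratio limit in the parent stood TrC1445W at 2.54 and TrB1328W at 2.61, and just outside TrA0073C at 2.45 and TrD0148W at 2.39. For the limit in Δ57513 these were TrB1357C at 2.52 and TrE1213W at 2.53 inside, and TrB1130W at 2.49 and TrD0856W at 2.42 outside. At the ratio of the strains in light, the outermost members, TrB1212W and TrC1160W, stood at 1.495 and 0.685, and the nearest IDs outside at 1.52 and 0.650. Membership of single IDs near a limit is therefore not firm. Leaving out 1 library at a time kept 47 to 54 of the 56 as members, and 29 remained members under every such omission.

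TrB0209C had the highest light ratio of the members in both strains and the second highest level in light. In light it stood at 1648, 1683 and 1501 CPM in Δ57513 and at 487, 1358 and 1919 CPM in the parent. In darkness it stood at 68.2, 6.91 and 4.79 CPM in Δ57513 and at 2.82 and 2.504 CPM in the parent. The Δ57513 libraries in light were close together, whereas parent replicate 1 in light lay well below the other parent libraries, and Δ57513 replicate 1 in darkness lay well above every other dark library. The light ratio was 59.4 in Δ57513 and 397 in the parent, and without Δ57513 replicate 1 in darkness it was 254 in Δ57513. Without parent replicate 1 in light, the parent ratio was 518 and the ratio of the strains in light was 0.983, against 1.28 with all libraries. Without parent replicate 3 in light it was 1.75, outside the limit of 1.5.

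TrE0456W had the second highest light ratio of the members at a much lower level. Its values in light were 26.9, 28.2 and 40.5 CPM in Δ57513 and 45.5, 34.0 and 34.8 CPM in the parent. In darkness they were 0.602, 1.09 and 0.653 CPM in Δ57513 and 0.245 and 0.132 CPM in the parent, resting on 38 and 6 counts in all. The light ratio was 25.2 in Δ57513 and 56.0 in the parent. These ratios depend on the added constant, since the dark means were 0.782 CPM in Δ57513 and 0.189 CPM in the parent, close to the constant of 0.5 or below it.

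TrC1160W was the most abundant member, and TrC1161W and TrC1162W, at the next serial numbers, were members too. This was the longest run of consecutive members. In light TrC1160W had 3326, 3052 and 2899 CPM in Δ57513 and 6116, 4373 and 3061 CPM in the parent. In darkness it had 193, 427 and 470 CPM in Δ57513 and 720 and 948 CPM in the parent. Δ57513 libraries were tightly grouped in light, while parent libraries spread about 2-fold, and the strains did not overlap in darkness, where Δ57513 was lower. The light ratio was 8.50 in Δ57513 and 5.41 in the parent for TrC1160W, 7.46 in Δ57513 and 4.14 in the parent for TrC1161W, and 5.09 in Δ57513 and 2.92 in the parent for TrC1162W.

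**Figure D2:**
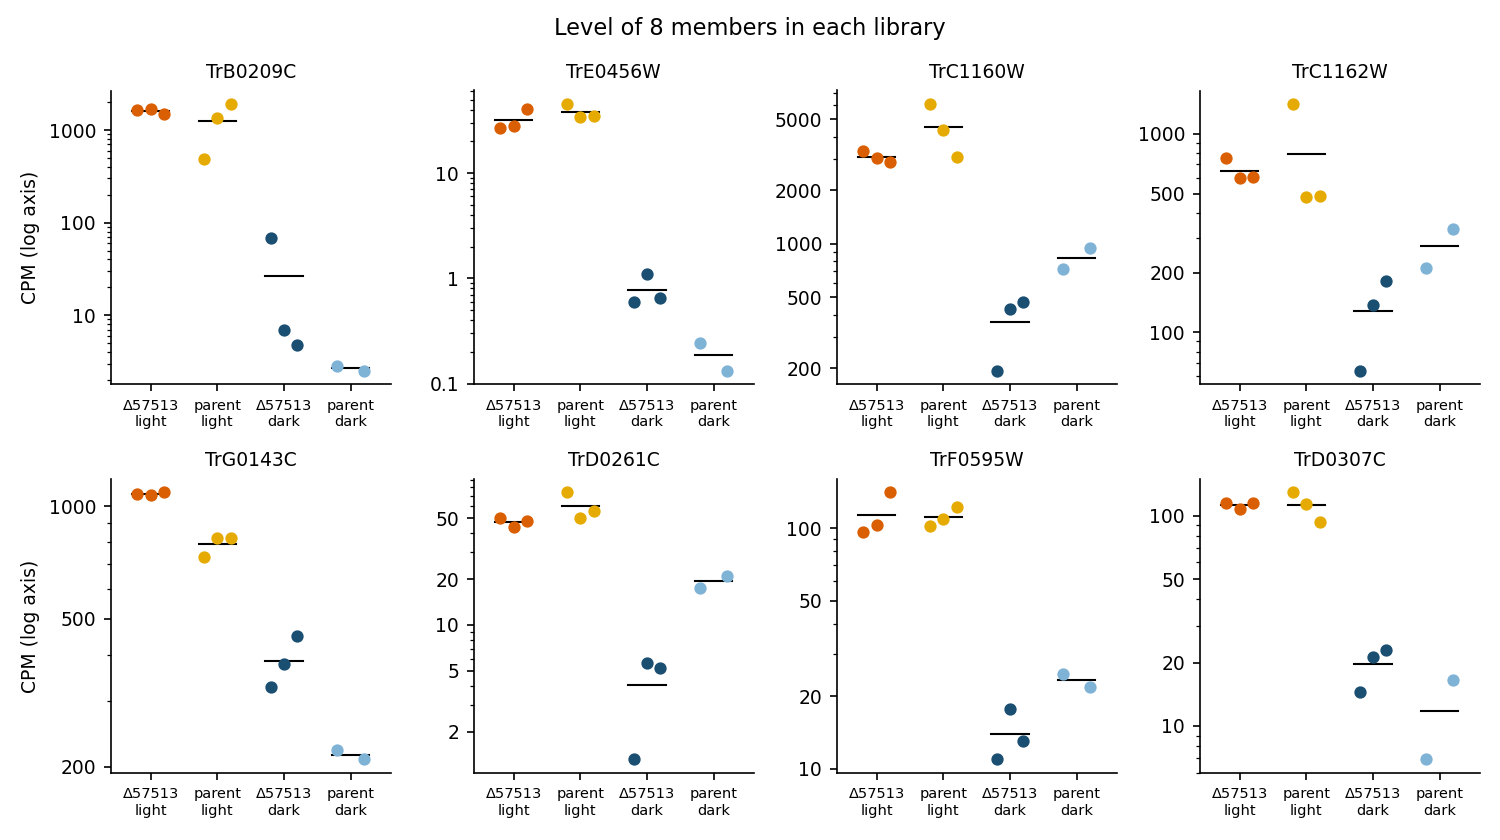
Level in CPM on log axes of 8 members in each library, with points for libraries and a line at the group mean, for Δ57513 in light, parent in light, Δ57513 in darkness and parent in darkness (n = 3, 3, 3 and 2). The light libraries lie above the dark ones in every panel, and the dark level differs between the strains most for TrB0209C, TrE0456W and TrD0261C.

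TrC1162W rested on 1 library in the parent. Its parent values in light were 1414, 479 and 489 CPM, so that replicate 1 stood apart, against 211 and 333 CPM in darkness. Without that library its light ratio in the parent was 1.78, below the limit of 2.5. TrC1162W also had the largest relative spread between light replicates, followed by TrC1021W, which had 36.8, 28.1 and 24.8 CPM in Δ57513 and 34.5, 19.1 and 14.1 CPM in the parent in light. In both IDs parent replicate 1 was the highest. Omitting a single library moved the light ratio by more than 1.5-fold for 6 members: TrB0209C, TrC1162W, TrB1725W, TrB1729W, TrC1108C and TrD0307C. For the last 4 the parent libraries in darkness decided it. Without parent replicate 1 in darkness the parent ratio was 2.96 for TrB1725W and 2.25 for TrB1729W, against 4.66 and 3.43 with all libraries. Without parent replicate 2 in darkness it was 10.9 for TrB1725W, 7.24 for TrB1729W, 9.16 for TrC1108C (5.80 with all libraries) and 15.2 for TrD0307C (9.21 with all libraries).

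TrF0595W and TrD0307C were the members with the most similar means of the strains in light. TrD0307C averaged 112.7 ± 4.48 CPM in Δ57513 and 112.1 ± 17.7 CPM in the parent in light (SD, n = 3 each). In darkness it averaged 19.6 ± 4.53 CPM in Δ57513 (SD, n = 3) and 11.7 ± 6.80 CPM in the parent (SD, n = 2). TrF0595W averaged 113.5 ± 23.8 CPM in Δ57513 and 111.5 ± 10.3 CPM in the parent in light (SD, n = 3 each). The means differed by less than the spread between replicates in both IDs.

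The comparison of the strains in darkness was not used by the rule, which sets a ceiling on each dark mean but no limit on their ratio. It was tested with edgeR's quasi-likelihood test in a fit of all 11 libraries and 9040 gene IDs, with Benjamini-Hochberg adjustment over all of them, and all 56 members were among the IDs tested. Of the members, 6 rose and 4 fell in Δ57513 relative to the parent, and 46 did not pass the threshold of 0.05. Over all tested IDs, 7.25% rose and 4.97% fell, 12.2% in all. The 10 members called are 17.9% of 56, a share of so few that nothing is read from its distance to the background. The median log2 fold change was 0.21 over the members and 0.0054 over all tested IDs, with 36 members positive and 20 negative. All Δ57513 libraries lay above all parent libraries in darkness for 18 members and below for 8, against 25.4% and 15.0% of all tested IDs.

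Members that rose in darkness did so by less than 2-fold, with TrE0456W as the exception. TrG0143C had 327, 377 and 448 CPM in Δ57513 and 222 and 209 CPM in the parent in darkness, a difference of 0.79 on the log2 scale (SE 0.12, edgeR adjusted p = 0.00407). All Δ57513 libraries were above both parent libraries. Its rank by level in light was 5 of 56, at 1081 ± 8.61 CPM in Δ57513 and 792 ± 54.4 CPM in the parent (SD, n = 3 each). TrC1045W had 29.98, 24.5 and 24.3 CPM in Δ57513 and 17.4 and 13.3 CPM in the parent in darkness, a difference of 0.75 on the log2 scale (SE 0.17, edgeR adjusted p = 0.0212). Its ranges did not overlap either. For TrE0456W the log2 fold change was 1.95 (SE 0.48, edgeR adjusted p = 0.0301), on the few dark counts given above. The 6 members that rose had log2 fold changes of 0.53 to 1.95.

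The largest fall in darkness was that of TrD0261C. It had 1.31, 5.64 and 5.22 CPM in Δ57513 and 17.6 and 21.1 CPM in the parent, a difference of -2.31 on the log2 scale (SE 0.43, edgeR adjusted p = 0.0112). All Δ57513 libraries were far below both parent libraries, and replicate 1 was the lowest. In light it reached 47.4 ± 3.31 CPM in Δ57513 and 59.9 ± 12.6 CPM in the parent (SD, n = 3 each), so its light ratio was 10.52 in Δ57513 and 3.04 in the parent. TrF0595W had 10.9, 17.8 and 13.1 CPM in Δ57513 and 24.8 and 21.8 CPM in the parent in darkness, a difference of -0.78 on the log2 scale (SE 0.21, edgeR adjusted p = 0.0385). The 4 members that fell had log2 fold changes of -2.31 to -0.50.

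A further 6 members differed at least 2-fold in darkness without passing the threshold. TrB0209C had a log2 fold change of 3.32 (95% interval 0.59 to 6.05, edgeR adjusted p = 0.108), and of 1.09 (edgeR adjusted p = 0.285) without Δ57513 replicate 1 in darkness. TrF1128W and TrC1203C were the other positive ones. TrC1160W, TrC1161W and TrC1162W had log2 fold changes of -1.25, -1.42 and -1.14 (edgeR adjusted p = 0.0534, 0.0747 and 0.192). The same analysis with DESeq2 called 1708 of 9040 gene IDs, against 1104 in edgeR. It called 15 members, 9 higher and 6 lower, with TrB0209C, TrC1160W and TrC1161W among them. Without parent replicate 1 in light edgeR called 1247 of 9115 gene IDs. Of the members it called 13, 7 higher and 6 lower. These included TrC1160W and TrC1161W (edgeR adjusted p = 0.0436 and 0.0471). Whether TrF1128W and TrC1203C passed in these alternatives is not given here. TrC1160W also passed without parent replicate 3 in light (edgeR adjusted p = 0.0475). Other settings moved TrC1160W and TrC1161W away from the threshold. Fitting only the dark libraries gave edgeR adjusted p = 0.169 and 0.171, and the replicate number as a block gave 0.134 and 0.185. Their log2 fold changes shrank to -0.996 and -1.17 once parent replicate 2 in darkness was dropped. Dropping replicate 1 instead widened them to -1.47 and -1.64. TrD0307C had 0.69 (edgeR adjusted p = 0.215). Its value depended on which parent library in darkness was left out, at 0.17 without replicate 1 and 1.496 without replicate 2. Among the 46 members that did not pass, the 95% interval stayed within a 2-fold change for 24 and reached beyond it for 22.

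**Figure D3:**
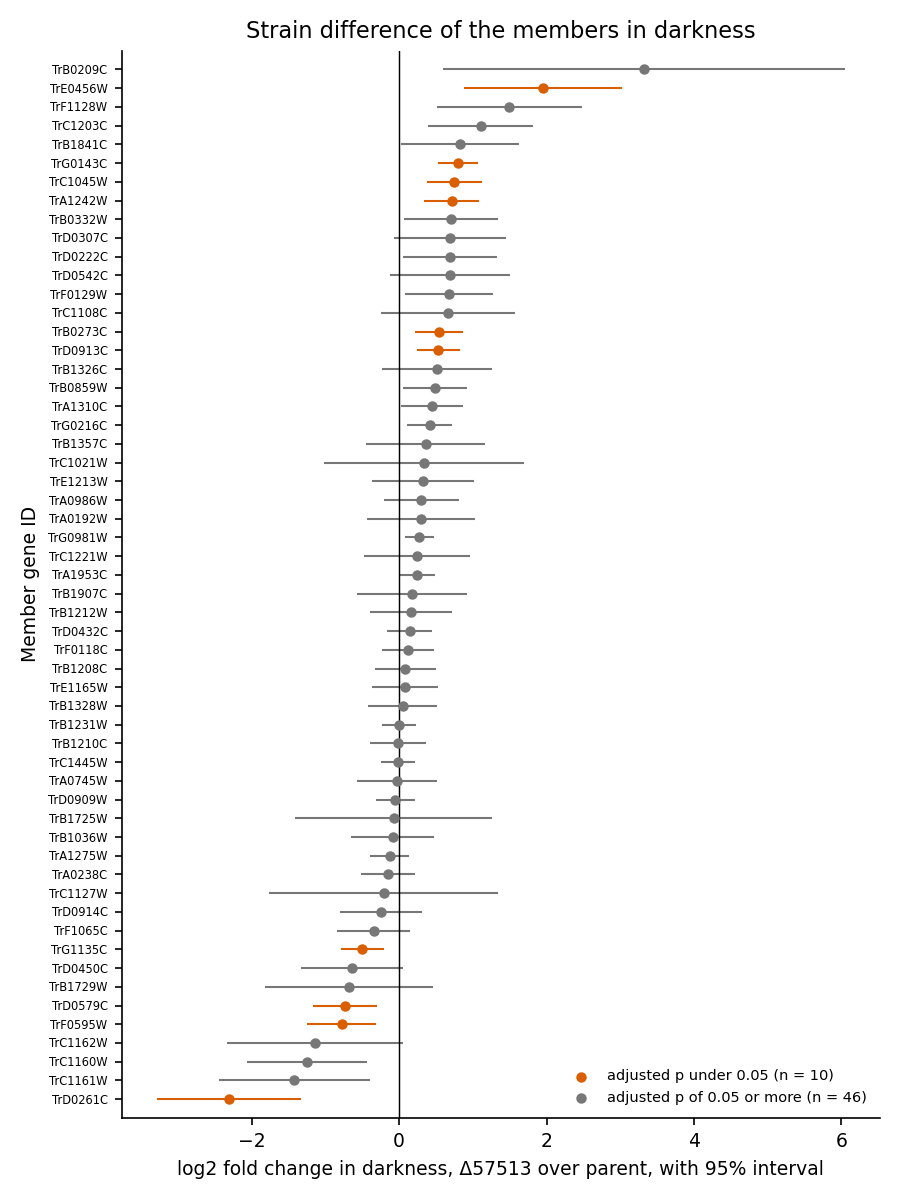
Log2 fold change in darkness of Δ57513 over parent for each of the 56 members, with its 95% interval from the edgeR fit of all 11 libraries (x axis), sorted from the highest to the lowest (y axis). The 10 members with an adjusted p under 0.05 are orange, 6 to the right and 4 to the left of 0, and the wide interval at the top is that of TrB0209C.

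The number of members called in darkness depended on single libraries. Calls over all gene IDs, 1104 of 9040 in the main fit, moved as well. Nothing particular to the members is therefore read from these counts. Omitting Δ57513 replicate 1 in darkness gave 11 calls, 10 higher and 1 lower, beside 1426 of 8962 gene IDs. Of the 11, 6 were among the 10 called with all libraries. Omitting Δ57513 replicate 2 or 3 in darkness gave 6 and 5 calls, all among those 10, beside 695 of 8950 and 697 of 8944 gene IDs. Omitting parent replicate 1 in darkness gave 2, both among the 10, and omitting parent replicate 2 in darkness gave 4, of which 1 was. Both omissions left 1 parent library in darkness, and fewer gene IDs over all were called too. Omitting Δ57513 replicate 2 in light gave 5, beside 702 of 9100 gene IDs. A fit of the 5 dark libraries alone in edgeR gave 0 calls among members, beside 238 of 9022 gene IDs. In it 17 members had an unadjusted p under 0.05, against 23 in the fit of all 11 libraries. The share of all IDs at that unadjusted p is not given here, so nothing is read from the 17. DESeq2 on all libraries gave 15 members, beside 1708 of 9040 gene IDs. TrG0143C kept its call in edgeR whichever library was omitted, but had an adjusted p of 0.0655 in the fit of the dark libraries alone. TrD0261C lost its call when parent replicate 2 in darkness was omitted (edgeR adjusted p = 0.0552), and TrC1045W when parent replicate 1 or 2 in darkness was (0.0505 and 0.125). TrE0456W lost it on omission of Δ57513 replicate 2 in darkness (edgeR adjusted p = 0.0730) and of parent replicate 1 or 2 in darkness (0.1003 and 0.148). TrF0595W was the least firm, with edgeR adjusted p between 0.0615 and 0.163 on omission of Δ57513 replicate 1 or 3 in darkness, Δ57513 replicate 2 in light, parent replicate 1 or 2 in darkness, or parent replicate 2 in light.

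The IDs induced in both strains but outside the limits in light showed other values in darkness. Of the 35 that were higher in Δ57513 in light, 8 rose and 0 fell in Δ57513 in darkness by edgeR, with a median log2 fold change of 0.60. Of the 42 that were lower in Δ57513 in light, 2 rose and 16 fell, with a median of -0.74. The members, at 6 and 4 of 56 and a median of 0.21, lay between these sets. Over all tested IDs, 7.25% rose and 4.97% fell. For the group means, the strain ratio in darkness equals that in light times the parent light ratio over the Δ57513 light ratio. Splitting by the strain ratio in light therefore builds in much of this order, and nothing is read from it. The difference of the members from these sets was not tested. The 42 IDs had a median light ratio of 4.18 in Δ57513 and 8.50 in the parent, while the 35 IDs had 4.65 in Δ57513 and 3.93 in the parent.

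Replicate spread of the members was lower in light than in darkness. The median coefficient of variation between replicates was 8.999% in Δ57513 and 14.0% in the parent in light, and 21.3% in Δ57513 and 18.3% in the parent in darkness. Other gene IDs at the same minimum level in light had medians of 6.38% in Δ57513 and 9.67% in the parent in light, and 11.04% in Δ57513 and 10.2% in the parent in darkness. The 77 gene IDs induced in both strains but outside the limits in light had 11.4% in Δ57513 and 21.999% in the parent in light, and 24.9% in Δ57513 and 19.6% in the parent in darkness. In all 4 groups the members' median lay above that of the other IDs at the level limit and below that of the induced IDs outside the limits. The other IDs shared only a minimum level in light with the members, so the spread in darkness is not compared at like levels. These differences were not tested. In Δ57513 in darkness replicate 1 was the library farthest from the others for 33 members, 58.9%, and for 64.5% of all tested IDs. In the parent in light replicate 1 was the farthest for 34 members, 60.7%, and for 47.0% of all tested IDs. All replicate pairs differed by more than sampling noise, with a chi-square per degree of freedom of at least 3.74.

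Members occurred in all 7 lettered series. Series B held 16 of the 56, or 28.6%, against 18.2% of all systematic IDs, and series E held 3, or 5.36%, against 12.02%. The last letter was W for 29 members and C for 27, close to the split of 49.3% and 50.7% over all IDs. Another member stood at an adjacent serial number for 5 members, or 8.93%, against 0.993% of all IDs, and within 2 serial numbers for 10, or 17.9%, against 1.94%. The serial numbers run without gaps in each series, and that they follow gene order along a chromosome is an assumption that was not checked here. The groups of neighbouring members described next were picked after their values were seen.

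Around TrB1208C, members alternated with IDs of very low level. TrB1208C, TrB1210C and TrB1212W had light ratios of 6.89, 10.49 and 13.1 in Δ57513 and 9.09, 12.5 and 9.997 in the parent. TrB1206C, at 2 serial numbers before TrB1208C, had 6.72 in Δ57513 and 7.01 in the parent and missed membership only by its ratio of the strains in light, 1.52. TrB1207W, TrB1209W and TrB1211C, which lie between them, had at most 2.03 CPM in any group mean. The alternating IDs thus included 3 members and 1 ID at the edge of the limits. TrB1215W, farther up, was induced more strongly in the parent, at 6.86 in Δ57513 and 21.2 in the parent.

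The run of TrC1160W to TrC1162W had different neighbours on its sides. TrC1159C before it had at most 1.11 CPM in any group, and TrC1158C had light ratios of 1.30 in Δ57513 and 1.04 in the parent. TrC1163C after it had light ratios of 2.67 in Δ57513 and 15.8 in the parent at a lower level, 14.02 CPM in Δ57513 and 33.4 CPM in the parent in light. TrC1163C rose in Δ57513 in darkness, by 1.53 on the log2 scale (SE 0.17, edgeR adjusted p = 0.000682), while the 3 members before it had negative values. TrD0909W, TrD0913C and TrD0914C formed another group, with light ratios of 4.45, 3.82 and 5.57 in Δ57513 and 4.79, 4.999 and 5.45 in the parent. The 3 IDs between them had ratios of at most 1.08. Of these, TrD0911C and TrD0912W had at most 0.042 and 3.26 CPM in any group mean, where the added constant pulls ratios towards 1.

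**Figure D4:**
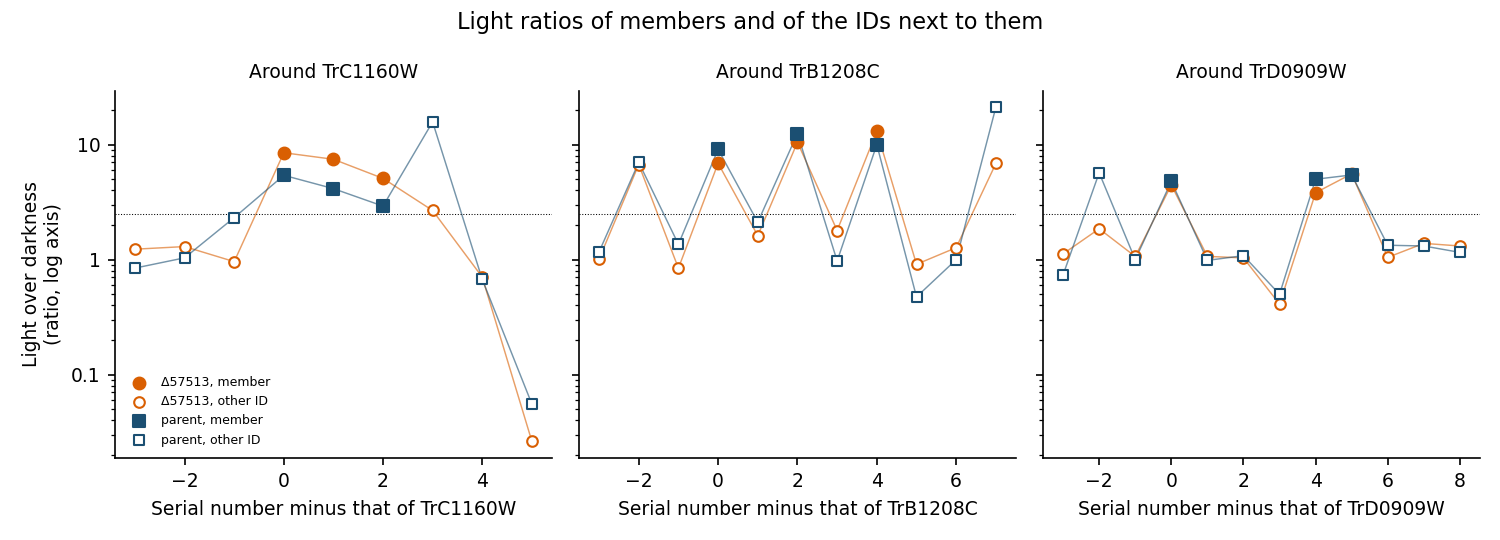
Ratio of light over darkness (y axis, log) by serial number relative to the first member (x axis) around 3 groups of neighbouring members, in Δ57513 (circles) and the parent (squares), with filled symbols for members and open ones for other gene IDs. Members stand above the dotted line at 2.5, and around TrB1208C the IDs between the members lie below it. Those IDs had at most 2.03 CPM in any group mean, so the added constant pulls their ratios towards 1 and their induction cannot be judged.

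Gene IDs directly next to a member were mostly not induced alike. Of 91 such tested non-members, 4 had light ratios of at least 2.5 in both strains, 4.40%, against 2.16% of all tested IDs. At least 1 strain reached that ratio for 13, 14.3%, against 7.61%. All tested IDs include the 56 members, which reach the ratio by the rule and so raise both background shares, whereas the 91 exclude them. The median log2 light ratio of the 91 was 0.33 in Δ57513 and 0.44 in the parent, against 0.19 in Δ57513 and 0.14 in the parent over all tested IDs.

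How neighbouring members deviated from their group means in single libraries differed between the 5 groups of members within 5 serial numbers. In Δ57513 replicate 1 in darkness, TrC1160W, TrC1161W and TrC1162W stood at 0.531, 0.473 and 0.5001 of their group mean, and in parent replicate 1 in light at 1.35, 1.54 and 1.78. TrB1725W and TrB1729W went the other way, at 1.36 and 1.51 in Δ57513 replicate 1 in darkness and at 0.451 and 0.672 in parent replicate 1 in light. In parent replicate 1 in darkness TrB1725W and TrB1729W stood at 0.416 and 0.471 of their group mean. A single library thus stood high for some members and low for others. Even within these groups the members did not always stand alike: in parent replicate 2 in light TrC1160W stood at 0.968 and TrC1162W at 0.603. TrB1208C, TrB1210C and TrB1212W stayed between 0.646 and 1.21 of the group mean in every library. The other groups included deviations in opposite directions. TrD0909W, TrD0913C and TrD0914C stood at 1.13, 0.931 and 1.09 in Δ57513 replicate 1 in darkness and at 0.908, 1.09 and 0.833 in replicate 3. TrB1326C and TrB1328W stood at 0.946 and 1.17 in parent replicate 2 in light and at 1.02 and 0.764 in replicate 3.

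**Figure D5:**
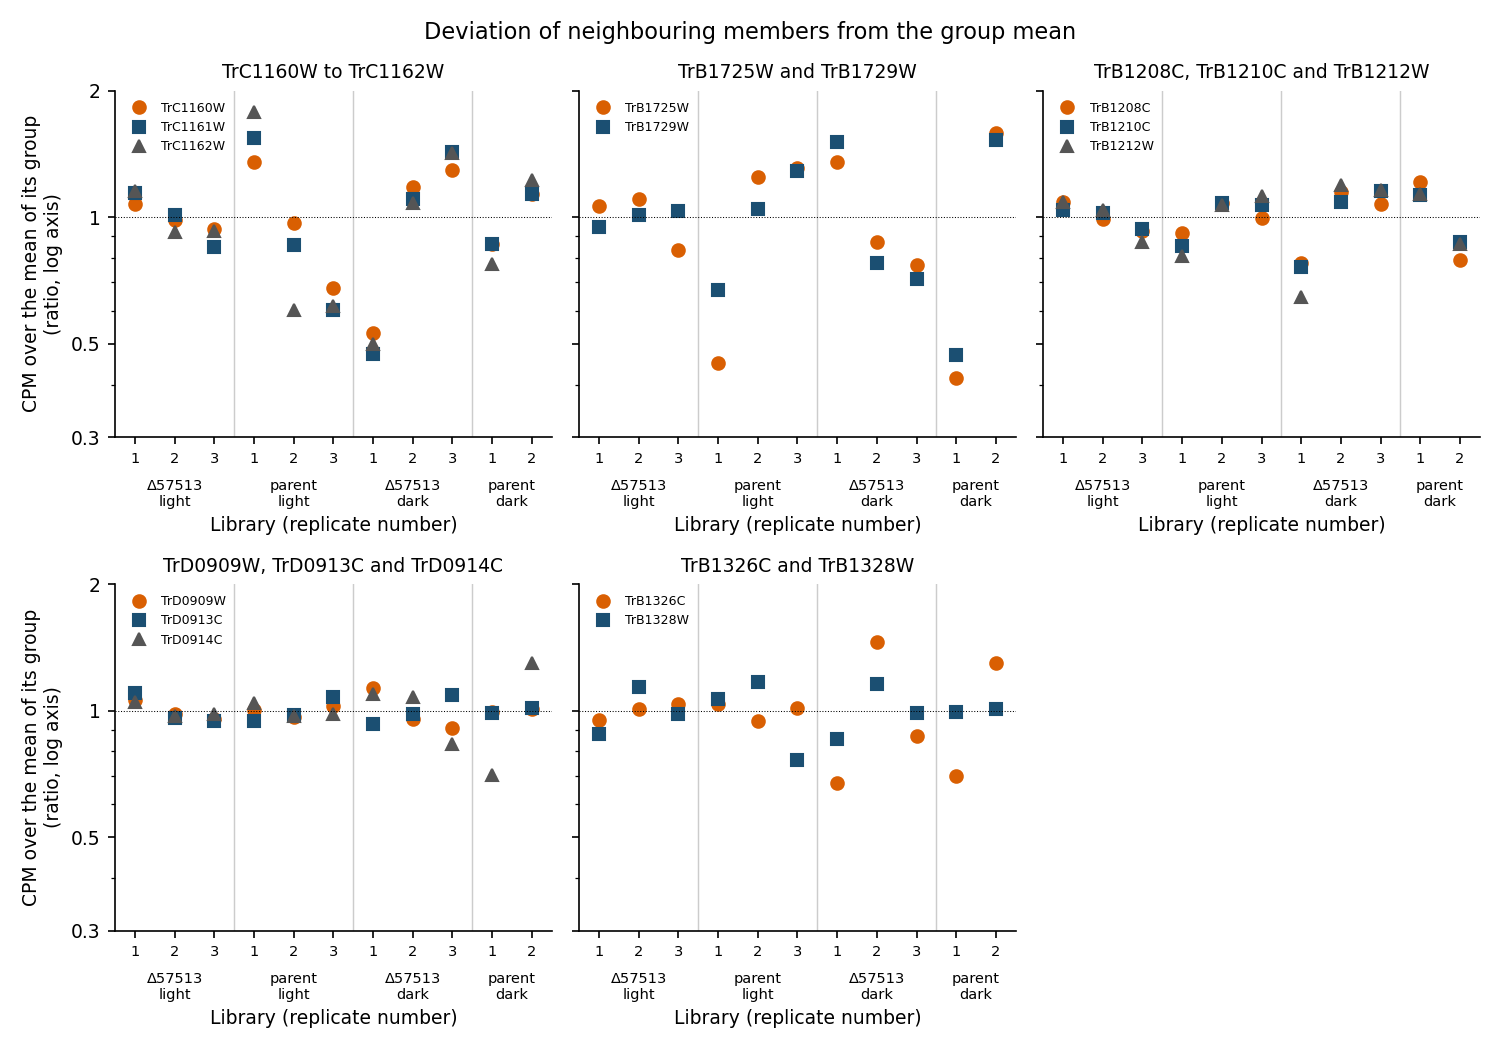
CPM of each library divided by the mean of its group (y axis, log) for all 5 groups of neighbouring members, by library (x axis) in Δ57513 in light, parent in light, Δ57513 in darkness and parent in darkness. Parent replicate 1 in light is above the mean for TrC1160W to TrC1162W and below it for TrB1725W and TrB1729W, while members around TrD0909W and TrB1326C lie on opposite sides of the mean in several libraries.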

How the data were processed

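Read counts per gene ID were deposited for 11 libraries, as whole numbers with no normalization. Per the submitters' processing notes, HISAT2 2.2.1 was used. How strand and shared reads were counted is not given in the labels, so overlapping or near-identical genes are uncertain. Per the labels, libraries were stranded and depleted of ribosomal RNA. All 11 columns were matched to samples by alignment name, and groups come from the sample titles. The members and the lists of IDs were chosen with earlier results of these data known.

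CPM used the column totals. The strain test in darkness used edgeR 4.0.16 in R 4.3.3 with filterByExpr (9040 IDs), TMM scaling, 4 group means and robust quasi-likelihood fits. The SE was taken as the log2 fold change divided by the root of the F statistic. DESeq2 1.42.0, other scalings and filters, a replicate block and omission of each library were alternatives. The test was checked on counts simulated with the same relative spread for all IDs. It recovered 37% of the simulated differences of 1 on the log2 scale and 100% of those of 2. Differences were placed only in IDs above a minimum mean count, and no library was made to stand apart. The shares therefore need not hold for members with few dark counts or an outlying library. A member that did not pass is therefore not shown to be unchanged. Whether replicates were separate cultures is not stated, so p-values reflect only the variation among these libraries, possibly technical.

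Named members followed a rule: the 2 most abundant in light, the 2 with the highest light ratio, in darkness the 2 largest rises and 2 largest falls with at least 1 CPM, the 2 most similar between strains in light, the 2 most variable in light, the longest run of serial numbers and the IDs at the limits. Other members named in connection with serial numbers or omitted libraries were chosen after their values were seen. The deleted locus was not analysed here.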

Additional observations from a re-analysis of the deposited data

How the results depend on the processing

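The number of members was 116 with a light ratio limit of 2 and 27 with a limit of 4. With 1 library left out it was 49 to 59, and it was 41 to 63 under the other scalings, constants and level limits and with all IDs of the series kept. In darkness, 1104 gene IDs and 10 members (6 higher, 4 lower) were called by edgeR. DESeq2 called 1708 IDs. With only the 5 dark libraries in edgeR, 238 IDs and 0 members were called (0 higher and 0 lower). In that fit 17 members had an unadjusted p under 0.05, and the share of all IDs at that p is not given here. The members lower in Δ57513 numbered 1 with library totals alone and 2 with upper-quartile scaling. With 1 library left out, 389 to 1426 IDs and 2 to 13 members were called, 1 to 10 of them higher and 0 to 6 lower. With the replicate number as a block, 630 IDs and 5 members (3 higher, 2 lower) were called. The labels do not say that numbers mark a shared origin, so the numbers were not taken as pairs. Deviations of same-numbered libraries of the strains correlated at -0.41 and -0.27 in darkness and at 0.17, -0.01 and 0.19 in light. For different numbers the values were -0.42 to 0.42 in darkness and -0.19 to 0.077 in light. These values cannot decide on pairing, because deviations cancel out within a group and the parent has 2 libraries in darkness. Members with another member nearby numbered 5 at adjacent serial numbers and 10 within 2. The causes of these differences were not tested. Of 270 alternative values of named members in darkness, 237 kept their direction and side of the threshold, 19 lost and 7 gained the call, and 7 changed sign, all of members called in neither fit. TrC1445W had -0.019 with all libraries, 0.014 with library totals alone, 0.038 with upper-quartile scaling and -0.075 to 0.036 with 1 library left out (highest without parent replicate 1 in darkness). With 1 library left out, TrB1328W had -0.050 to 0.14 against 0.050 (-0.0015 without parent replicate 1 in darkness), TrC1021W -0.21 to 0.77 against 0.33, and TrB1357C -0.18 to 0.61 against 0.36. The lowest values of TrB1328W and TrC1021W came without Δ57513 replicate 2 in darkness, and that of TrB1357C without Δ57513 replicate 1 in darkness. Of the alternative light ratios of named members, 145 of 150 in Δ57513 and 132 of 135 in the parent moved by less than the spread between replicates. That spread includes any outlying library, so a small move by this measure does not show stability. Without parent replicate 1 in light the parent log2 light ratio of TrC1162W fell from 1.55 to 0.83. This was still less than its spread of 1.01. The parent group in darkness, with 2 libraries, limits all results in darkness.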

Other observations

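Some gene IDs next to a member shared part of its pattern, and these were picked after their values were seen. TrD0262C, next to TrD0261C, averaged 20.1 CPM in Δ57513 and 92.5 CPM in the parent in darkness, and 120.7 CPM in Δ57513 and 141.4 CPM in the parent in light. Its log2 fold change in darkness was -2.25 (SE 0.45, edgeR adjusted p = 0.016), close in size to that of TrD0261C. TrF0119W, next to TrF0118C, had light ratios of 11.9 in Δ57513 and 8.26 in the parent, but averaged 10.499 CPM in Δ57513 and 4.90 CPM in the parent in light, and missed the level limit in the parent and, at 2.04, the limit on the ratio of the strains. TrF0130W, next to TrF0129W, averaged 28.4 CPM in Δ57513 and 1.72 CPM in the parent in light, and so missed the level limit in the parent. Its ratio of the strains in light, 13.0, was far outside the limits. In darkness it averaged 0.257 CPM in Δ57513 and 0 CPM in the parent, below the added constant.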
